A study of Schizosaccharomyces pombe with 2 samples.

Results

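The 3 genes examined here, out of 5076 in the deposited table, encode enzymes that make or break down trehalose in fission yeast, Schizosaccharomyces pombe. The rule that picks them uses systematic identifiers alone, but the choice of the pathway was made with earlier results of these data known. They are tps1 (SPAC328.03, chromosome I), which encodes trehalose-6-phosphate synthase, tpp1 (SPAC19G12.15c, chromosome I), which encodes trehalose-6-phosphate phosphatase, and ntp1 (SPBC660.07, chromosome II), which encodes neutral trehalase. Gene expression had been measured by RNA sequencing in 1 library of cells with a deletion of ppr10 and 1 library of wild-type cells, both from cultures in logarithmic growth. The product of ppr10 is a pentatricopeptide repeat protein, one of a family that binds RNA in mitochondria, and the comparison was made, per the series' design text, to learn why cells die. The labels give no other genetic difference between the strains. The sources used here do not give the medium, temperature or strain background.

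Trehalose is a disaccharide of glucose. Tps1 joins glucose 6-phosphate to glucose taken from UDP-glucose, Tpp1 removes the phosphate to leave free trehalose, and Ntp1 splits trehalose back to glucose. In fission yeast the sugar protects cells against heat, drying and osmotic stress and serves as a carbon store in spores. Stress raises tps1 and ntp1 transcripts, and the Ntp1 enzyme is also activated by phosphorylation, so transcript levels do not give the activity of either enzyme or the amount of the sugar.

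To the nearest 1000, 16885000 reads were mapped uniquely to genes in the deletion library and 17053000 in the wild type. The median gene had 1589.5 reads in the deletion library and 1497 in the wild type. The deleted gene itself had 12 reads in the library labelled as the deletion and 1879 in the wild type. With 1 library per group no difference can be set against the spread between cultures, and no test was run. Intervals are exact 95% intervals from read counts, cover counting error only, and compare these libraries, not the strains. Levels are given as RPKM, reads divided by gene length and by library total. A log2 difference is log2((deletion RPKM + 1)/(wild-type RPKM + 1)). A gene counts here as higher or lower where that difference reaches 2-fold; genes with a mean RPKM under 1 were left out.

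All 3 genes had more transcript in the deletion library than in the wild type, by 1.91-fold to 3.05-fold. By the 2-fold rule 2 of the 3, tps1 and ntp1, were higher, and tpp1 lay just under the limit. In RNA from a whole culture, a larger share of cells with these transcripts and more transcript per cell cannot be told apart. Over all 4986 genes tested, 2.79% were higher by that rule and 1.14% were lower. The median log2 difference was 1.44 over the 3 genes and 0.05 over all genes tested, whose quartiles lay at −0.17 and 0.26. Of all genes tested, 57.1% had a positive difference. Together the 3 genes took 31728 reads in the deletion library, or 0.188% of it (95% interval 0.186% to 0.190%), against 13419 reads or 0.0787% (0.0774% to 0.0800%) in the wild type, a ratio of 2.39 (2.34 to 2.44).

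The synthase gene tps1, whose product starts the pathway, had 12818 reads in the deletion library, or 492 RPKM (484 to 501), and 4741 reads in the wild type, or 180 RPKM (175 to 186). It was the most abundant of the 3 in each library. The RPKM ratio was 2.73 (2.64 to 2.82) and the log2 difference 1.44, the 67th largest among the 4986 genes. By RPKM, tps1 stood 304th of all 5076 genes in the deletion library and 964th in the wild type.

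The phosphatase gene tpp1, whose product completes synthesis, had 12180 reads or 294 RPKM (289 to 299) in the deletion library and 6450 reads or 154 RPKM (150 to 158) in the wild type. Its ratio was 1.91 (1.85 to 1.97), so the whole counting interval lay above 1 and below 2. The log2 difference of 0.93 was the 163rd largest, and tpp1 lay between the limits in every setting tried that kept the 2-fold rule. With a 1.5-fold limit, which 7.94% of all genes passed upward, tpp1 was higher too.

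The trehalase gene ntp1, whose product breaks trehalose down, had 6730 reads or 181 RPKM (176 to 185) in the deletion library and 2228 reads or 59.2 RPKM (56.7 to 61.7) in the wild type. It had the smallest level of the 3 in each library and the largest ratio, 3.05 (2.91 to 3.20). Its log2 difference of 1.59 was the 61st largest. In rank by RPKM, ntp1 stood 957th in the deletion library and 2820th in the wild type. Genes of both directions of the pathway, synthesis and breakdown, were therefore higher by the 2-fold rule in the deletion library.

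**Figure D1:**
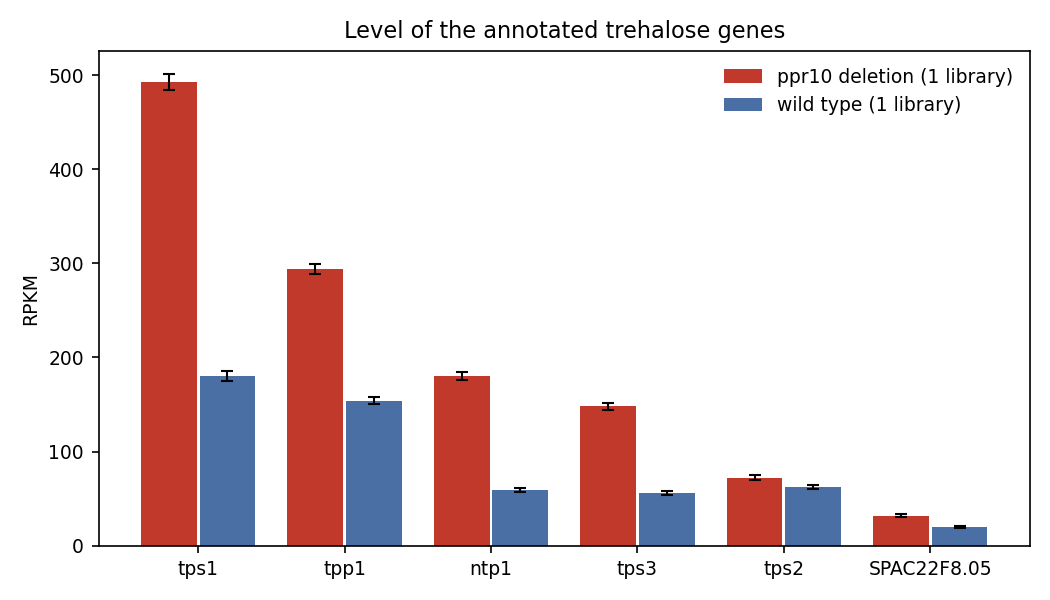
Level in RPKM (vertical axis) of the 6 genes annotated for trehalose metabolism in the ppr10 deletion library (red) and the wild-type library (blue), with exact 95% Poisson intervals for counting error. The red bar is above the blue bar for each gene, from 492 against 180 RPKM for tps1 to 31.6 against 19.9 RPKM for SPAC22F8.05, and the pair for tps2 (72.0 against 62.0 RPKM) is the closest in ratio.

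Reads covered almost the whole listed length of each of the 3 genes, with the deposited coverage score between 99.91 and 99.96 percent in both libraries. The listed lengths are 1542, 2454 and 2208 bases for tps1, tpp1 and ntp1, and equal the coding lengths in the reference annotation. No coding sequence of that annotation matched any of the 3 in a nucleotide search, so reads shared with a near-identical copy were not found. Noncoding RNA genes are annotated on the opposite strand of each: 2 overlap tps1, 1 overlaps tpp1 and 6 overlap ntp1. The sources used here do not say whether reads were counted by strand. Any reads from these antisense transcripts within the counted sequence cannot be told apart from those of the enzymes' genes. The overlap with neighbouring coding genes was 12 bases for tps1, 39 for tpp1 and 0 for ntp1. All these overlaps are between whole annotated genes, and how much of them lies in the counted coding sequence was not examined.

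The 3 genes did not differ by one common factor. Ratios between genes of the same library do not depend on how the libraries are scaled. In the deletion library tpp1 had 0.597 of the level of tps1 (0.582 to 0.612), against 0.855 (0.823 to 0.888) in the wild type. The deletion proportion was 0.698 of the wild-type one (0.668 to 0.731). The proportion of trehalase to synthase transcript, ntp1 over tps1, differed less: it was 0.367 (0.356 to 0.378) in the deletion library and 0.328 (0.312 to 0.345) in the wild type, 1.12 times as large (1.05 to 1.18). Against the phosphatase, ntp1 stood at 0.614 of tpp1 (0.596 to 0.633) in the deletion library and 0.384 (0.366 to 0.403) in the wild type, 1.60 times as large (1.51 to 1.69).

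**Figure D2:**
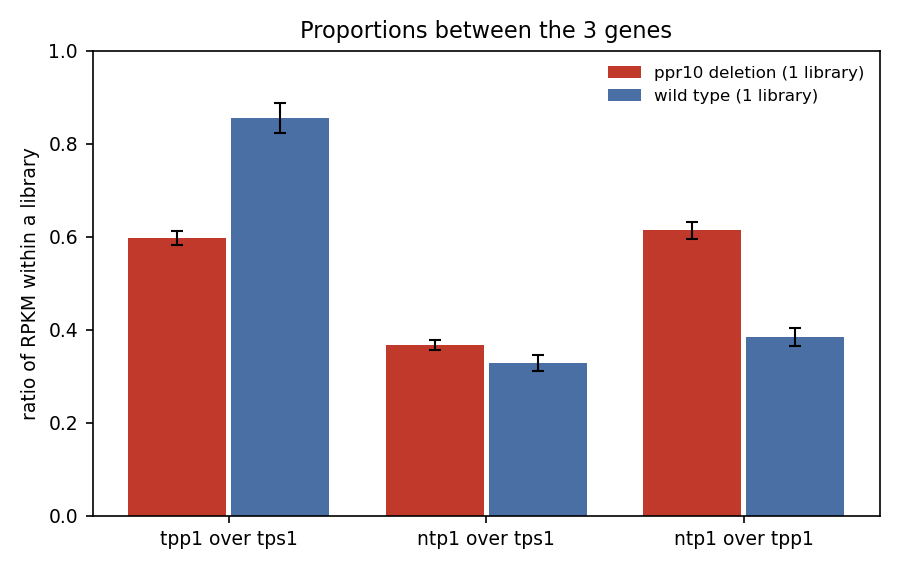
RPKM ratio between pairs of the 3 genes within the ppr10 deletion library (red) and within the wild-type library (blue), with exact 95% intervals for counting error. The proportion tpp1 over tps1 is smaller in the deletion library (0.597 against 0.855), ntp1 over tpp1 is larger (0.614 against 0.384), and ntp1 over tps1 is closest between libraries (0.367 against 0.328).

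The annotation names 3 further genes for trehalose-phosphate synthase. Of these, 1 (tps3) was higher by the 2-fold rule and 0 were lower, where 2.79% of all genes were higher and 1.14% lower. The gene tps3 (SPACUNK4.16c) had 7089 reads or 148 RPKM (145 to 152) in the deletion library and 2691 reads or 55.7 RPKM (53.6 to 57.8) in the wild type. Its ratio of 2.66 (2.54 to 2.78) was close to that of tps1: the proportion tps3 over tps1 was 0.301 in the deletion library and 0.309 in the wild type, and the ratio of these proportions was 0.974 with an interval that includes 1 (0.921 to 1.03). The other two lay between the limits. SPAC22F8.05 had 31.6 RPKM (30.0 to 33.3) in the deletion library and 19.9 RPKM (18.6 to 21.2) in the wild type, a ratio of 1.59 (1.46 to 1.73).

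The third of these genes, tps2 (SPAC3G6.09c), had 3100 reads or 72.0 RPKM (69.5 to 74.6) in the deletion library and 2697 reads or 62.0 RPKM (59.7 to 64.4) in the wild type. Its ratio of 1.16 (1.10 to 1.22) was the smallest of the 6. The proportion of tps2 to tps1 was 0.146 in the deletion library and 0.344 in the wild type, so the deletion proportion was 0.425 of the wild-type one (0.400 to 0.452). Like tps1, tpp1 and ntp1, none of these 3 genes matched another coding sequence at 90% identity over 100 bases; tps3 and SPAC22F8.05 matched each other at 70.7% over 157 bases. Opposite-strand noncoding RNA genes also overlap these 3 genes, 2 at tps3, 2 at tps2 and 1 at SPAC22F8.05. The overlap at SPAC22F8.05 is 3000 bases, more than its listed length of 2676. A noncoding RNA gene on the same strand overlaps SPAC22F8.05 by 95 bases. The overlap with neighbouring coding genes was 51 bases for tps3, 48 for tps2 and 0 for SPAC22F8.05. These overlaps too are between whole annotated genes.

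The order of the 6 levels differed between the libraries. In the deletion library it ran tps1, tpp1, ntp1, tps3, tps2 and SPAC22F8.05, and no neighbours in that order had overlapping intervals. In the wild type it ran tps1, tpp1, tps2, ntp1, tps3 and SPAC22F8.05. There tps2 stood at 1.05 times the level of ntp1, with an interval that includes 1 (0.991 to 1.11), so their order was not resolved at this depth, and tps3 stood at 0.941 of ntp1 (0.889 to 0.995). In the deletion library tps2 stood at 0.399 of ntp1 (0.382 to 0.416).

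**Figure D3:**
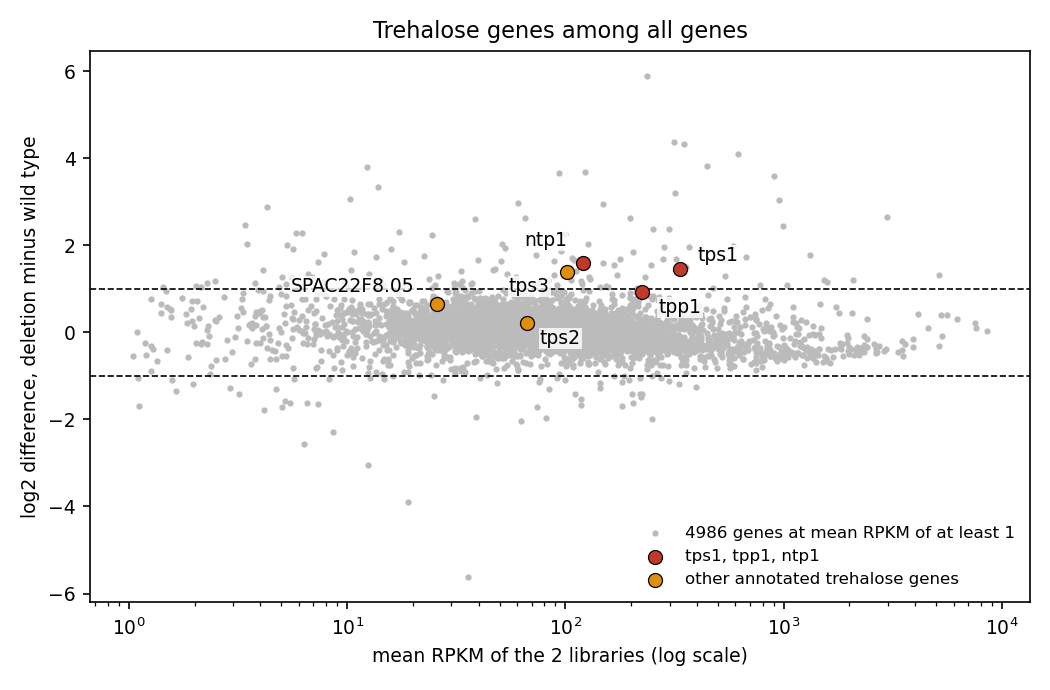
Log2 difference, deletion minus wild type (vertical axis), against mean RPKM of the libraries (horizontal axis, log scale) for 4986 genes, with the 2-fold limits dashed. The genes tps1, ntp1 and tps3 lie above the upper limit at 1.44, 1.59 and 1.40, tpp1 lies just under it at 0.93, and tps2 lies within the bulk of the genes at 0.21.

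Genes that supply the substrates of Tps1 lay between the limits. Of 6 genes for glucose 6-phosphate and UDP-glucose, 0 were higher and 0 were lower, a count near the background of 2.79% higher and 1.14% lower over all genes. All 6 differences were positive, against 57.1% of all genes, and the median log2 difference was 0.32, against 0.05. The largest was that of pgi1, the glucose-6-phosphate isomerase gene, with 1331 RPKM in the deletion library and 882 RPKM in the wild type, a ratio of 1.51 (1.48 to 1.53). The hexokinase genes hxk2 and hxk1, whose products make glucose 6-phosphate, stood at 1.42-fold (1.39 to 1.45) and 1.15-fold (1.12 to 1.18). The phosphoglucomutase gene pgm1, on the path to UDP-glucose, stood at 1.36-fold (1.32 to 1.40).

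The genes fyu1 and ugp1 encode the enzyme that makes UDP-glucose itself. They stood at 1.06-fold (1.03 to 1.09) and 1.11-fold (1.04 to 1.18). Other enzymes draw on the same UDP-glucose, chiefly the glucan synthases of the cell wall. Of 11 such genes 0 were higher and 0 were lower, again near the background of 2.79% and 1.14%. Of the 11 differences 10 (90.9%) were positive, against 57.1% over all genes, with alg5 and ags1 so near 0 that other scalings turned their sign. Their median log2 difference was 0.20, against 0.05 over all genes, with a range of −0.02 (alg5) to 0.37 (bgs1, a synthase of the septum). The well expressed glucan synthase gene bgs4 had 172 RPKM in the deletion library and 135 RPKM in the wild type, a ratio of 1.27 (1.25 to 1.30), and the alpha-glucan synthase gene ags1 stood at 1.03-fold.

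Kinase pathways that act on trehalase or on stress transcripts were examined next. Of 16 genes, 0 were higher and 0 were lower, near the background of 2.79% and 1.14%. These are transcript levels and do not give the activity of the pathways. Of the 16 differences 13 (81.2%) were positive, against 57.1% over all genes, with wis4 and cyr1 so near 0 that other scalings turned their sign, and the median log2 difference was 0.18, against 0.05. The largest was that of atf1, a transcription factor under the stress kinase Sty1, with 75.1 RPKM in the deletion library and 41.6 RPKM in the wild type, a ratio of 1.80 (1.68 to 1.94). Its DNA-binding partner gene pcr1 had 46.9 RPKM in the deletion library and 59.4 RPKM in the wild type, a ratio of 0.790 (0.692 to 0.901).

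The gene of Sty1 itself stood at 1.10-fold (1.06 to 1.14) and that of its activating kinase Wis1 at 1.21-fold (1.12 to 1.31). The gene pka1, for the catalytic subunit of the cAMP-dependent kinase, had 1941 reads in the deletion library and 1313 in the wild type, a ratio of 1.49 (1.39 to 1.60). The S6 kinase family gene sck1 stood at 1.36-fold (1.30 to 1.43) and its relative sck2 at 0.792-fold (0.718 to 0.872). The adenylate cyclase gene cyr1 stood at 0.989-fold, with an interval that includes 1 (0.941 to 1.04).

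Of 15 genes listed as induced by stress, 9 were higher, 0 were lower and 6 lay between; 8 were higher with a pseudocount of 5 RPKM, or with genes under a mean of 5 RPKM left out. Their median log2 difference was 1.20, against 0.05 over all genes, of which 2.79% were higher and 1.14% lower. The list was written with earlier results of these data known, so its count is a description only. The ratios of tps1 and ntp1 lay within its range. The small heat shock protein gene hsp16 had 1162 RPKM in the deletion library and 66.9 RPKM in the wild type. The sulfiredoxin gene srx1 stood at 13.5-fold (10.8 to 17.1), the heat shock gene hsp9 at 3.19-fold (2.96 to 3.45) and the Hsp70 gene ssa1 at 3.15-fold (2.97 to 3.35).

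The disaggregase gene hsp104, whose product acts with trehalose in heat tolerance in budding yeast, had 105 RPKM in the deletion library and 46.7 RPKM in the wild type, a ratio of 2.25 (2.14 to 2.37). The gene gpd1 encodes a glycerol-3-phosphate dehydrogenase that acts in making glycerol, another protective solute. It had 2125 RPKM in the deletion library and 923 RPKM in the wild type, a ratio of 2.30 (2.26 to 2.34). Other stress genes had lower levels in the deletion library without reaching the limit: the catalase gene ctt1 stood at 0.766-fold (0.711 to 0.824) and hsp90 at 0.616-fold (0.608 to 0.623). The metallothionein gene zym1, counted as higher, rests on 16 reads in the deletion library and 2 in the wild type, a ratio of 8.08 (1.90 to 72.4).

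Markers of glucose and nitrogen starvation, a state in which trehalose genes are also known to be induced, were mixed. Of 10 genes, 2 were higher, 8 lay between the limits and 0 were lower, where 2.79% of all genes were higher and 1.14% lower. The median log2 difference was 0.49, against 0.05 over all genes. The 2 were ght5, a high-affinity glucose transporter gene, with 340 RPKM in the deletion library and 54.1 RPKM in the wild type (6.30-fold, 5.96 to 6.65), and agl1, a maltase gene (2.50-fold, 2.23 to 2.81). With a pseudocount of 5 RPKM the log2 difference of agl1 was 0.95, which left ght5 as the 1 gene counted. The glucose-repressed gene fbp1, for fructose-1,6-bisphosphatase, had 25.8 RPKM in the deletion library and 19.7 RPKM in the wild type, a ratio of 1.31 (1.14 to 1.51). The invertase gene inv1 stood at 1.58-fold (1.45 to 1.72) and ste11, the regulator of mating under nitrogen starvation, at 1.77-fold (1.51 to 2.09). The meiotic gene mei2, with 237 reads in the deletion library and 241 in the wild type, stood at 0.993-fold (0.827 to 1.19). The part of culture state in the levels of the trehalose genes was not tested.

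**Figure D4:**
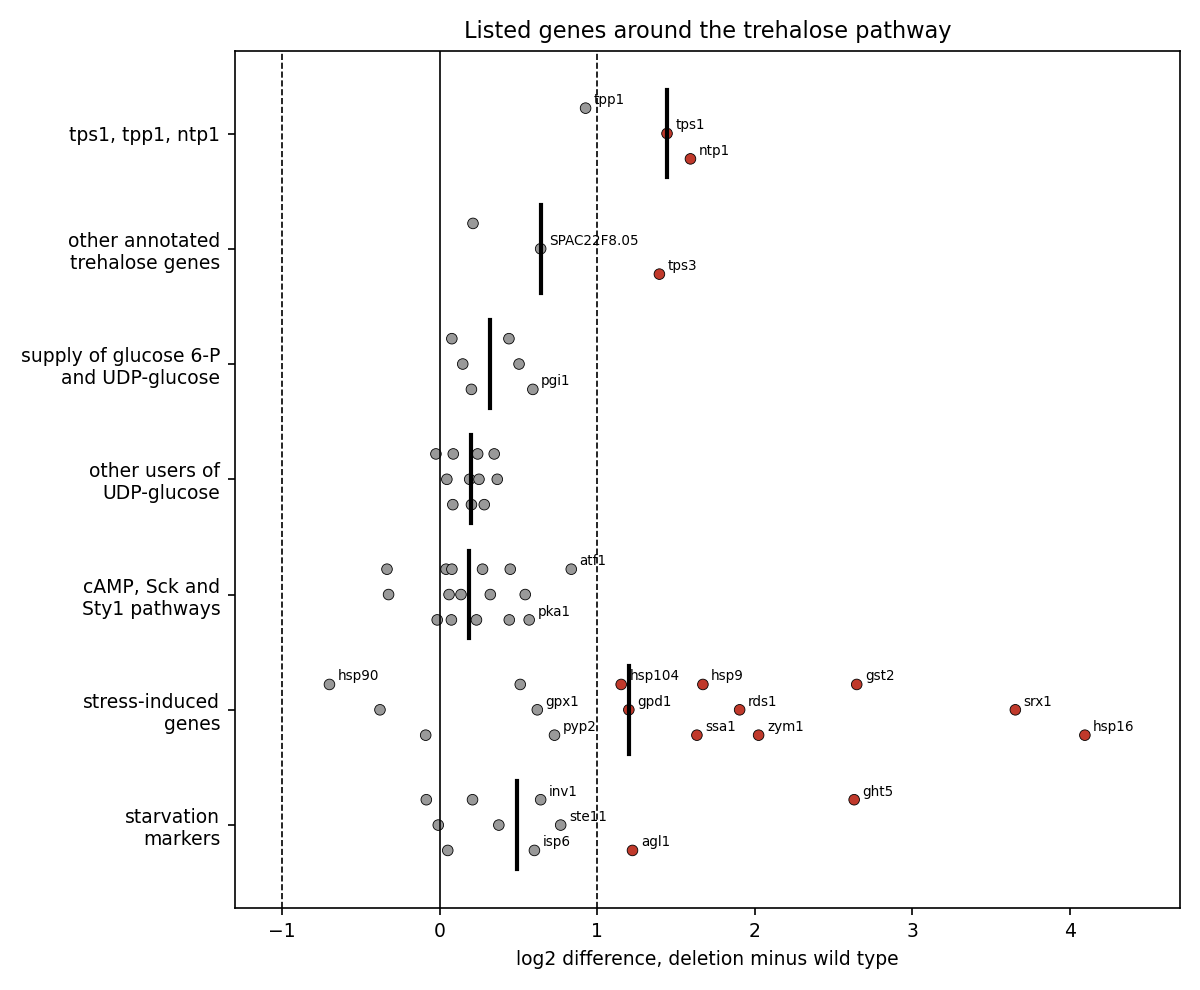
Log2 difference, deletion minus wild type (horizontal axis), of each gene in 7 groups (rows); red points are higher by the 2-fold rule, grey points lie between the dashed limits, vertical positions within a row have no meaning, and black bars are medians. The medians lie at 1.44 for tps1, tpp1 and ntp1, 1.20 for stress-induced genes, 0.64 for the other annotated trehalose genes, and 0.18 to 0.49 for the remaining 4 groups.

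The genes with levels most like each of the 3 in both libraries were found as the 3 nearest by Euclidean distance over log2(RPKM + 1) in the 2 libraries, a likeness that rests on only those 2 values per gene. The nearest to tps1 was zta1, an NADPH quinone oxidoreductase gene, with 529 RPKM in the deletion library and 186 RPKM in the wild type, followed by SPBC16A3.02c and the dehydrogenase gene SPBC12C2.04. The nearest to tpp1 was rib1, a GTP cyclohydrolase gene, with 279 RPKM in the deletion library and 162 RPKM in the wild type, followed by the homocysteine synthase gene met17 and the serine protease gene psp3. The nearest to ntp1 was the But2 family gene SPAC27D7.11c, with 163 RPKM in the deletion library and 60.6 RPKM in the wild type, followed by sib2, a gene of siderophore synthesis, and the surface glycoprotein gene pfl8.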

How the data were processed

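The deposited table holds, per the file headers, a gene length, a count of uniquely mapped reads, an RPKM value and a coverage score for each gene in each library; columns were matched to the libraries through the labels. The deposited RPKM values equal the reads divided by length and column total, within 4.99e-07. The deposited coverage score, in percent of the length, passes 100 in a few genes and was used only as a description. A dash was read as 0. Per the submitters' processing notes, Bowtie2 2.2.3, TopHat2 2.0.12 and the build ASM294v2 were used; the series' design text also names BWA and Cufflinks. The sources used here do not say which of these made the values, nor the strand setting. Libraries came from Trizol-extracted total RNA through a NEBNext Ultra kit, per the labels' protocols.

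With 1 library per group, RPKM was the measure of size and no count model or p-value was used. Ratios carry exact Clopper-Pearson 95% intervals from the reads, levels exact Poisson intervals, and ratios of proportions exact conditional odds-ratio intervals (scipy 1.17.1). PCR reads without molecular identifiers are not independent molecules. The code was tested on simulated data. Names, products and gene order came from ASM294v3, a later build, so no coordinates or sequences are given; 5048 of 5076 identifiers matched by locus tag and 1 by synonym. Copies were sought with blastn 2.17.0 among its coding sequences.

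The 3 genes and all lists were chosen with earlier results of these data known. The lists hold 61 genes besides the 3. Named genes are the 3, any listed gene, their neighbours on the chromosome and the 3 nearest in level. The listed symbol glk1 had no match. Alternatives were other pseudocounts, scalings, filters on low values and a 1.5-fold limit.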

Additional observations from a re-analysis of the deposited data

How the results depend on the processing

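The higher count of 2 of 3 trehalose genes held in all 8 alternatives that kept the 2-fold rule. These were other pseudocounts, TPM, other scalings and filters on low values. The filters could not change the count, since tps1, tpp1 and ntp1 had mean levels of 336, 224 and 120 RPKM. With a 1.5-fold limit all 3 were higher. The log2 differences of tps1, tpp1 and ntp1 kept their sign. Those of 5 listed genes close to 0 did not: alg5 (0.02), cyr1 (0.03) and mei2 (0.03) turned positive with TPM, and ags1 (−0.0035) and wis4 (−0.0086) turned negative with median-of-ratios size factors, wis4 also without ribosomal protein genes (−0.0031). Median-of-ratios size factors, which move the median of all genes to 0.00, gave 1.39 for tps1 and 0.88 for tpp1, and totals without 129 cytosolic ribosomal protein genes gave 0.88 for tpp1, each outside its counting interval. The 1.5-fold limit raised the count of all genes to 620 of 4986 tested, with 396 (7.94%) higher and 224 lower. With it, 2 of 3 other trehalose genes, 1 of 6 substrate supply genes and 1 of 16 kinase pathway genes passed. The counts of 1 gene each are near the share over all genes. Of the starvation markers 5 of 10 passed, and of the stress-induced genes 12 of 15, with hsp90 as lower. A pseudocount of 5 RPKM lowered the count of all lower genes to 37 and that of starvation markers to 1. It left 8 stress-induced genes, with zym1 at 0.96, and leaving out genes under a mean of 5 RPKM, zym1 among them, also left 8. No paired analysis was possible because the groups hold 1 library each; leaving out a replicate was likewise not possible.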

Other observations

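The genes next to tps1, tpp1 and ntp1 in the reference annotation were read from the same table. On one side of ntp1 lies wwm2 (SPBC660.06), on the same strand, which was itself higher by the 2-fold rule, with 329 RPKM in the deletion library and 136 RPKM in the wild type, a log2 difference of 1.27. The gene on the other side, atg38, had a log2 difference of 0.34. The neighbours of tps1, dbl4 and spg4, had log2 differences of 0.28 and 0.33. Those of tpp1 were its3, at 0.02, and adg2, with 114 RPKM in the deletion library and 175 RPKM in the wild type, at −0.62. None of these neighbours other than wwm2 passed the 2-fold limit, where 2.79% of all genes tested were higher and 1.14% lower.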
